A study of Mus musculus with 6 samples.

Results

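Transcripts of 9 genes of the B cell receptor complex and its proximal signalling were followed in RNA sequencing libraries of mouse material labelled lung tissue. The genes were Cd79a, Cd79b, Ms4a1, Cr2, Cd22, Blk, Blnk, Btk and Cd72. They were chosen for their place in the receptor pathway, with earlier results of these data known. All 9, matched by exact symbol, were found among the 21956 genes of the deposited table. The libraries form 2 groups of 3, named Aalter and VE in the labels, which give no genotype, strain, age, agent or dose for either and do not spell out the names. Alpha tocopherol, which is a vitamin E, appears in the series title together with type 2 innate lymphoid cells and inflamed allergic airways. The comparison asks how VE differs from Aalter, and no untreated group was analysed here. Whether each library is a different animal is not stated, so the p-values reflect only how these libraries vary, which may be technical.

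The B cell receptor is a membrane immunoglobulin that binds antigen, joined to a signalling dimer of CD79A and CD79B (Igα and Igβ). When antigen draws receptors together, SRC-family kinases such as BLK and LYN phosphorylate the tails of that dimer, the kinase SYK docks there, and the adaptor BLNK gathers BTK and phospholipase C gamma 2, which opens calcium and NF-kB signalling. Complement receptor 2 (the product of Cr2) strengthens the signal as part of a co-receptor, while the inhibitory receptors CD22 and CD72 recruit the phosphatase SHP-1 and dampen it. In inflamed lung, B cells can gather in lymphoid aggregates and give rise to antibody-secreting plasma cells, which switch off much of the receptor's signalling machinery.

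Total estimated counts lay between 11617074 and 16205053 per library, and levels are given as CPM, counts scaled to library size times edgeR's TMM factor. A gene with no count could still have stood at up to 3 counts, which is between 0.18 and 0.251 CPM, from counting error only. The material was rich in leukocyte transcripts. The summed level of 12 neutrophil genes was between 26968 and 46259 CPM, whereas 12 genes of lung epithelium and endothelium summed to between 212 and 464 CPM. The alveolar type 2 cell marker Sftpc lay between 12.57 and 18.29 CPM, which is low for a transcript that is abundant in whole lung. Aalter-1 stood apart from the other Aalter libraries on the first principal component, which held 66.7% of the variance, with a score of -2.34 against 61.4 and 56 in Aalter-2 and Aalter-3 and between -40.2 and -36 in VE.

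The 9 genes did not move together. Cr2, Cd22, Blk and Cd79a fell in VE, Btk rose, and Ms4a1, Blnk, Cd79b and Cd72 did not pass the test, edgeR's quasi-likelihood F test adjusted over 12551 genes by Benjamini and Hochberg's method at a threshold of 0.05. Adjusted p-values below come from it unless another fit is named. The count of 4 lower among 9 genes stands beside 19.5% of all genes tested that were lower, and 1 higher beside 12.8% that were higher, or 32.3% in either direction. The median log2 fold change of the 9 genes was -0.432, and that of all genes tested was 0.0228. All VE libraries lay below all Aalter libraries for the 4 genes that fell, as for 26.3% of all genes tested, and all lay above for Btk, as for 25.6%. In bulk samples such as these, fewer cells of a type and less RNA per cell cannot be told apart.

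**Figure D1:**
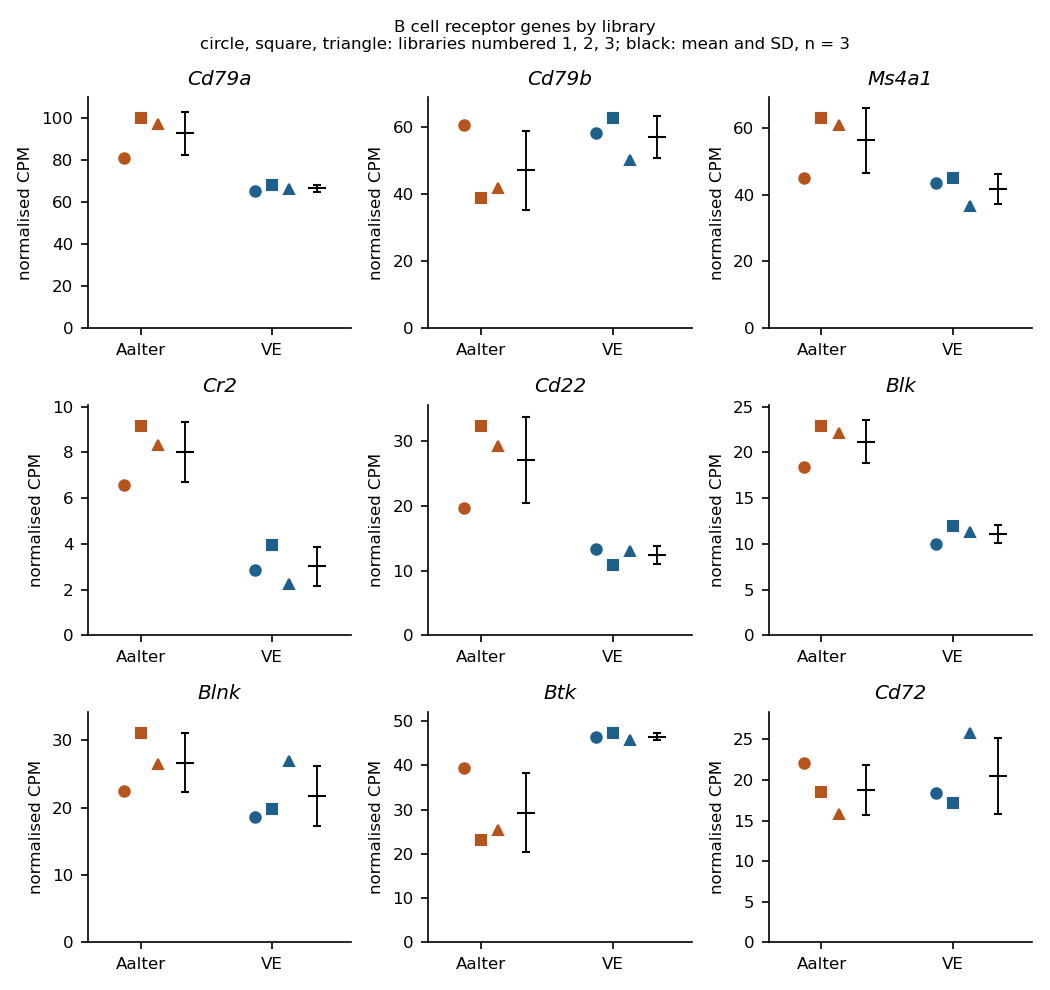
Normalised CPM of the 9 B cell receptor genes in each library (vertical axes, linear from 0), with Aalter in brown and VE in blue, and the mean and SD of 3 libraries in black. Cr2, Cd22, Blk and Cd79a are lower in every VE library than in every Aalter library, Btk is higher, and the other genes overlap between the groups.

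The sequences before the RefSeq starts of 3 genes that fell and of the gene that rose are given here. They show where these genes share letters. RefSeq's table on GRCm38.p6, the build that mm10 names, held 6 of the 9 genes. The window searched was the 250 bases before each RefSeq start. Annotations differ on these starts. In GENCODE vM21, Cd22 and Btk, both on the minus strand, begin further upstream, at 30880342 and 134583570. The stretches shown for Cd22 and Btk thus lie inside the gene by that annotation, whereas those of Cd79a and Cr2 lie before it. Bases in a GENCODE exon of the same gene (116 for Cd79a, 102 for Cd22, 250 for Blnk and 2 for Cd72) are not shown. The stretches read 5′ to 3′ on the gene's strand, and capitals mark matches on either strand to the PU.1 and Ets motif AGGAAGT, the octamer ATGCAAAT, the EBF1 motif CCCNNGGG and the E2A E-box CAGGTG, none of which overlapped another.
Cd79a, chr7:24897247-24897380, plus strand: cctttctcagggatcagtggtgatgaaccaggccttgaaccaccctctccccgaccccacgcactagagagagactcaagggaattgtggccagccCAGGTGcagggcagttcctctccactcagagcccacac
Cr2, chr1:195176720-195176969, minus strand: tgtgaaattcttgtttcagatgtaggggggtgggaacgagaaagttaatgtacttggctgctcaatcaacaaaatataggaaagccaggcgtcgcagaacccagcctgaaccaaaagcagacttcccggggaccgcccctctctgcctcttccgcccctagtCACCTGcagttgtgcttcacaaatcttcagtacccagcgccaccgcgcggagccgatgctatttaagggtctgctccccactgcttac
Cd22, chr7:30879029-30879176, minus strand: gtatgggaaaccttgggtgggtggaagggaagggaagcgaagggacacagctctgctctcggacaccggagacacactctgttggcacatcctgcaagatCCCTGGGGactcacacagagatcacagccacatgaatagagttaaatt
Btk, chrX:134583141-134583390, minus strand: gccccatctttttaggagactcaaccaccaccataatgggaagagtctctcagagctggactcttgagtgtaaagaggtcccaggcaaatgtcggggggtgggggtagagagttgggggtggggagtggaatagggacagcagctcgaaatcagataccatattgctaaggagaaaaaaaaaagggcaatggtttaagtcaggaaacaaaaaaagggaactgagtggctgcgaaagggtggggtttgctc
The capitals show an E-box in Cd79a and Cr2 and an EBF1 match in Cd22 that begins 48 bases before its RefSeq start, and Btk held no match to any of the 4 motifs in its window. In the exonic bases not shown, Cd22 had an E-box and Cd79a an AGGAAGT. Blnk held an E-box, the octamer and AGGAAGT, all exonic, and Cd72 held AGGAAGT. In all, the E-box was in 4 of the 6 windows, AGGAAGT in 3, and the EBF1 motif and the octamer in 1 each. Of all 32851 promoter windows of this length in the table, 17.2% held the E-box, 7.69% AGGAAGT, 11.8% the EBF1 motif and 1.6% the octamer. A match describes the letters only, and binding was not measured.

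Among the signalling chains of the receptor, Cd79a fell and Cd79b did not pass. Cd79a (ENSMUSG00000003379, chromosome 7 from 24897381 to 24902197) encodes Igα. It stood at 81.03, 99.97 and 97.51 CPM in Aalter-1 to Aalter-3 and at 65.21, 68.38 and 66.17 CPM in VE-1 to VE-3. Aalter-1 was the lowest of the Aalter libraries, yet it was above every VE library. The means were 92.8 ± 10.3 and 66.6 ± 1.62 CPM (SD, n = 3), so Cd79a fell by 28.3%. On the log2 scale the change was -0.48 ± 0.10 (SE; edgeR adjusted p = 0.0167).

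Cd79b (ENSMUSG00000040592, chromosome 11 from 106311341 to 106314762) encodes Igβ, the partner of Igα in the dimer. Its levels were 60.7, 38.69 and 41.78 CPM in Aalter, against 58.33, 62.6 and 50.14 CPM in VE. Aalter-1 lay within the VE range, and the other Aalter libraries lay below all of VE. The log2 fold change was 0.28 ± 0.18 (edgeR adjusted p = 0.271). Without Aalter-1 it was 0.50 and passed (adjusted p = 0.000981).

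The ratio of Cd79a to Cd79b within a library does not depend on the scaling. It was 1.34, 2.58 and 2.33 in Aalter and 1.12, 1.09 and 1.32 in VE, so the partners were nearer to each other in VE and in Aalter-1 than in Aalter-2 and Aalter-3. This ratio and the others below were chosen after their values were seen and were not tested. Per kilobase of the longest annotated transcript, Cd79a was the most abundant of the 9 genes in both groups, at 63.7 ± 7.07 and 45.7 ± 1.11 CPM per kilobase in Aalter and VE. Cd79b came next, at 32.9 ± 8.33 and 39.8 ± 4.42 CPM per kilobase.

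The order of the other genes by CPM per kilobase differed between the groups. In Aalter it ran from Ms4a1 (18.3 ± 3.19) through Btk (11.5 ± 3.49), Blk (9.1 ± 1.03), Cd72 (7.28 ± 1.2), Cd22 (6.82 ± 1.67) and Blnk (5.88 ± 0.96) to Cr2. In VE it ran from Btk (18.3 ± 0.318) through Ms4a1 (13.6 ± 1.48), Cd72 (7.92 ± 1.82), Blnk (4.8 ± 0.982), Blk (4.75 ± 0.427) and Cd22 (3.12 ± 0.333) to Cr2. In Aalter the libraries of each neighbouring pair from Ms4a1 down to Blnk overlapped, and in VE those of Blnk and Blk did, whereas the other neighbours in the order did not overlap. Differences in mappability between genes were not corrected.

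**Figure D2:**
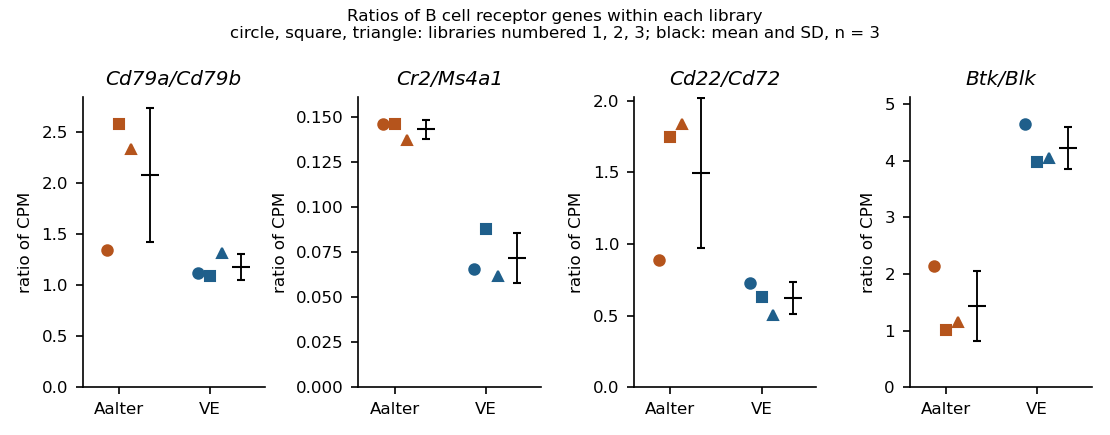
Ratios of normalised CPM between pairs of B cell receptor genes within each library (vertical axes, linear from 0), with Aalter in brown, VE in blue, and the mean and SD of 3 libraries in black. Cr2 relative to Ms4a1 and Btk relative to Blk separate the groups widely, while for Cd79a relative to Cd79b the ratio of 1.34 in Aalter-1 lies next to the VE value of 1.32.

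The co-receptor gene Cr2 fell. It (ENSMUSG00000026616, chromosome 1 from 195136811 to 195176716) encodes the complement receptors CR2 and CR1 in the mouse by alternative splicing, which counts per gene do not separate. It had 108, 110 and 139 counts in Aalter and 40, 47 and 33 in VE, or 6.575, 9.172 and 8.32 CPM against 2.866, 3.938 and 2.26 CPM. The lowest Aalter library was thus above the highest VE library. The log2 fold change was -1.41 ± 0.24 (edgeR adjusted p = 0.01), and Cr2 fell by 62.4%. Cr2 had the lowest level per kilobase of the 9 genes, at 1.29 ± 0.213 CPM per kilobase in Aalter and 0.486 ± 0.137 in VE.

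Cr2 is also expressed by follicular dendritic cells. Of 8 markers of those cells 7 were in the table and 4 could be tested. Of these 4, 50% rose and 0% fell, beside 12.8% and 19.5% of all genes tested. Those that rose were Vcam1 (0.95 ± 0.25) and Serpine2 (0.89 ± 0.29). Each passed in 1 of the 6 fits with a library left out, neither passed with library size as the only scaling (adjusted p = 0.0624 and 0.0998), and Serpine2 did not pass after the GC content and length correction (0.0603). The summed level of the markers in the table was between 137 and 148 CPM in Aalter and between 159 and 167 CPM in VE, most of it from Cr1l, a relative of Cr2 at 130 and 141 CPM on average. Cr1l is expressed widely and did not pass (adjusted p = 0.392). The marker Cxcl13 averaged 2.59 and 4.27 CPM and did not pass (0.71 ± 0.26, adjusted p = 0.0686). The part of these cells in the level of Cr2 was not tested.

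Ms4a1 (ENSMUSG00000024673, chromosome 19 from 11249675 to 11266241) encodes CD20, a surface protein of mature B cells associated with the receptor. It stood at 44.99, 62.87 and 60.87 CPM in Aalter, against 43.57, 45 and 36.51 CPM in VE. Aalter-1 was level with VE-2, and the other Aalter libraries lay above all of VE. With a log2 fold change of -0.43 ± 0.15 it did not pass (adjusted p = 0.0641). It passed without Aalter-1 (-0.57, adjusted p = 0.000229), scaled by library size alone, with DESeq2 and after correction for GC content and transcript length (-0.76).

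Relative to Ms4a1 in the same library, Cr2 was at 0.146, 0.146 and 0.137 in Aalter and at 0.0658, 0.0875 and 0.0619 in VE. Here Aalter-1 was like the other Aalter libraries. Cd22 relative to Ms4a1 went from 0.478 ± 0.0396 to 0.301 ± 0.0571, and Blk relative to Ms4a1 from 0.38 ± 0.0263 to 0.268 ± 0.0406, with no overlap between the groups in either. Cd79a relative to Ms4a1 was 1.66 ± 0.118 in Aalter and 1.61 ± 0.173 in VE, which differ by less than the spread between libraries.

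The inhibitory receptor genes parted. Cd22 (ENSMUSG00000030577, chromosome 7 from 30865402 to 30880342) encodes a sialic acid-binding lectin of B cells. It stood at 19.66, 32.43 and 29.21 CPM in Aalter, against 13.33, 10.89 and 13.01 CPM in VE. Aalter-1 was nearer to VE than the other Aalter libraries were, but above it. The log2 fold change was -1.12 ± 0.20 (edgeR adjusted p = 0.0107), and Cd22 fell by 54.1%.

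Cd72 (ENSMUSG00000028459, chromosome 4 from 43446462 to 43454628) encodes a C-type lectin-like receptor. It stood at 22.04, 18.51 and 15.86 CPM in Aalter, against 18.35, 17.18 and 25.82 CPM in VE, so the groups overlapped and VE-3 was the highest library. Its log2 fold change was 0.12 ± 0.20 (adjusted p = 0.654), and the sign turned with library size as the only scaling (-0.017) and without VE-3 (-0.11). The ratio of Cd22 to Cd72 was 0.892, 1.75 and 1.84 in Aalter and 0.727, 0.634 and 0.504 in VE.

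Both genes share bases with a neighbour in GENCODE vM21, Cd22 with the antisense gene Gm29439 and Cd72 with Tesk1 on the opposite strand. Whether the counting used strand is not given in the sources used here, so reads of these pairs may not be separated, and the level of Cd72, whose estimated counts were not whole in any of the 6 libraries, is uncertain.

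Of the kinases and the adaptor, Blk fell, Btk rose and Blnk did not pass. Blk (ENSMUSG00000014453, chromosome 14 from 63372836 to 63417037), a SRC-family kinase of the B lineage, stood at 18.45, 22.93 and 22.15 CPM in Aalter, against 9.961, 11.9 and 11.3 CPM in VE. The groups were apart, with every VE library well below Aalter-1. The log2 fold change was -0.94 ± 0.14 (edgeR adjusted p = 0.00707), and this p was the smallest of the 9 genes.

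Blnk (ENSMUSG00000061132, chromosome 19 from 40928927 to 40994535), the adaptor that links SYK to BTK, stood at 22.4, 31.1 and 26.46 CPM in Aalter, against 18.63, 19.78 and 26.85 CPM in VE. VE-3 lay above 2 of the 3 Aalter libraries. The log2 fold change was -0.29 ± 0.18 (adjusted p = 0.248), and it passed in none of the 17 alternative fits, with adjusted p-values from 0.0656 to 0.589.

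Btk (ENSMUSG00000031264, chromosome X from 134542336 to 134583570), the TEC-family kinase that activates phospholipase C gamma 2, stood at 39.45, 23.1 and 25.38 CPM in Aalter, against 46.29, 47.35 and 45.76 CPM in VE. The VE libraries were close to each other, and Aalter-1 lay between them and the other Aalter libraries. The log2 fold change was 0.66 ± 0.20 (edgeR adjusted p = 0.0393). Without both libraries numbered 1 it was 0.94. Scaled by library size alone it was 0.52 (adjusted p = 0.107), and after the GC content and length correction 0.46 (adjusted p = 0.0527), and it passed neither. Relative to Blk, Btk was at 2.14, 1.01 and 1.15 in Aalter and at 4.65, 3.98 and 4.05 in VE.

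Btk is expressed by myeloid and mast cells as well as by B cells, and Blnk by some macrophages. Of 16 macrophage and monocyte markers 11 rose (68.8%, beside 12.8% of all genes tested) and none fell. The summed level of the 16 was between 5014 and 6980 CPM in Aalter, with Aalter-1 the highest, and between 9029 and 9471 CPM in VE. The smallest p-values were those of Ly6c2 (0.86 ± 0.16), Ccr2 (0.745 ± 0.16), Fcgr3 (0.81 ± 0.18) and Cd14 (0.87 ± 0.20), while Csf1r, the receptor for the macrophage growth factor, rose by 0.69 ± 0.17 on the log2 scale. Each of the 11 genes passed in 1 of the 6 fits with a library left out, and 5 of the list were higher with library size as the only scaling, where Csf1r did not pass (adjusted p = 0.059). Of 12 neutrophil markers 10 rose (83.3%, beside 12.8% of all genes tested). Among them were Ngp (0.74 ± 0.14), Mmp9 (0.59 ± 0.12), Mmp8 (0.79 ± 0.16) and S100a9 (0.64 ± 0.13, but -0.58 after the GC content and length correction, where it did not pass). After that correction 7 were higher, and 7 with library size as the only scaling. Ngp, Mmp9 and Mmp8 each passed in 1 of the 6 fits with a library left out, and S100a9 in 2. With any library but Aalter-1 left out, at most 1 of the 12 was higher, when between 2 and 110 of all genes were. Of 8 tested mast cell and basophil markers 4 rose (50%) and 2 fell (25%), beside 12.8% and 19.5% of all genes tested. After the correction 2 were higher and 1 lower. The 4 that rose (Mcpt8, Ms4a2, Gata2 and Hdc) each passed in 1 of the 6 fits with a library left out. Hdc averaged 399 and 641 CPM in Aalter and VE, far above Mcpt8 at 12.1 and 17.2 CPM. Which cells gave the Hdc transcripts was not tested. Of the 2 that fell, Cma1 (-2.09 ± 0.29) passed in 6 of those fits and after the correction. Kit (-0.56 ± 0.13) passed in 1 of them and not after the correction. No marker in these 3 lists was at 0 in every library. The part of these cells in the level of Btk was not tested.

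**Figure D3:**
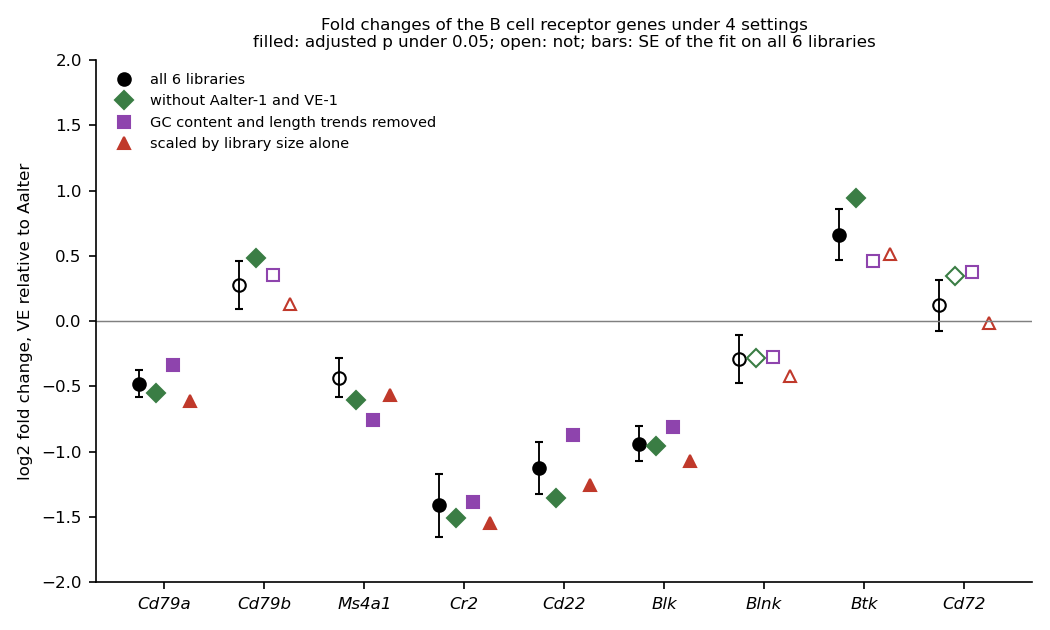
Log2 fold change of the 9 B cell receptor genes (vertical axis, VE relative to Aalter) in the fit on all 6 libraries and in 3 alternative fits, with filled symbols for an adjusted p under 0.05 and bars for the SE of the first fit. Cr2, Cd22, Blk and Cd79a are below 0 and pass in the 4 settings, Btk passes in 2 of them, and Cd72 changes sign with library size as the only scaling.

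The calls rest on few libraries. Without both Aalter-1 and VE-1, 5 of the 9 genes were lower and 2 were higher, against 28.4% and 27.2% of all genes tested. After the GC content and length correction, Ms4a1 joined the 4 genes that fell and none was higher at the threshold (1 at an unadjusted p under 0.05, from edgeR, and 1 by each of DESeq2 and limma-voom without that correction), where 12.6% of all genes tested were lower, 13.8% higher and 26.4% in either direction. Scaled by library size alone, which moves the median of all genes by -0.14 on the log2 scale, 86.7% of all calls were lower rather than 60.2%. In the 6 fits that leave out 1 library, Blk passed in 5 (not without VE-2, adjusted p = 0.0514), Cr2 in 4 (not without Aalter-3 or VE-1, at most 0.0551) and Cd22 in 2 (without Aalter-1 and without Aalter-2, and otherwise at most 0.066). Cd79a and Btk each passed only without Aalter-1, and otherwise reached 0.0779 and 0.136. The log2 fold changes in those fits kept their sign, between -1.66 and -1.26 for Cr2, between -1.31 and -0.98 for Cd22, between -1.03 and -0.87 for Blk, between -0.57 and -0.42 for Cd79a and between 0.52 and 0.94 for Btk.

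Over the 6 libraries, log2 CPM of Cd79a had a Pearson correlation of 0.98 with Blk, 0.973 with Cd22, 0.951 with Cr2 and 0.919 with Ms4a1, of -0.783 with Cd79b and of -0.972 with Btk. These 6 points share the difference between the groups and the place of Aalter-1, and 2246 of 9417 genes with a mean of at least 5 CPM had a correlation above 0.9 with Cd79a. The nearest were Hs6st1 (0.9994), Smad7 (0.9992) and Rfx1 (0.9992). For Ms4a1 they were Csnk1a1 (0.9996), Zfp619 (0.9962) and Adgre5 (0.996), with Csnk1a1 at 361 and 314 CPM on average in Aalter and VE.

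Further along the pathway, 27 of 74 other genes fell, 15 rose and 32 did not pass, with a median log2 fold change of -0.159. As shares these are 36.5% lower and 20.3% higher, beside 19.5% and 12.8% of all genes tested. Without Aalter-1, 35 were lower and 26 higher, when 3652 and 3561 of all genes were. With any other library left out, between 5 and 12 were lower and at most 1 higher, when between 177 and 811 of all genes were lower and between 2 and 110 higher, and at least 14 were higher at an unadjusted p under 0.05 from edgeR. Among 26 kinases and adaptors 9 fell (34.6%) and 7 rose (26.9%). The smallest p-values were those of the ubiquitin ligase genes Cblb (-0.98 ± 0.09) and Cbl (-0.545 ± 0.10), which restrain receptor signalling, the exchange factor gene Vav2 (-1.60 ± 0.19) and the kinase gene Fyn (-0.98 ± 0.14). After the GC content and length correction Cbl did not pass (-0.23, adjusted p = 0.12).

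Lyn, the main SRC-family kinase of the receptor, rose from 254 ± 87.1 to 430 ± 36.8 CPM (0.76 ± 0.23, adjusted p = 0.0409), though not with library size as the only scaling (0.61, adjusted p = 0.0952). The kinase gene Syk was at 329.1, 225 and 227.5 CPM in Aalter, against 361, 360.4 and 368 CPM in VE, and did not pass (0.48 ± 0.16, adjusted p = 0.0544). It passed without both libraries numbered 1 (0.69) and after the GC content and length correction (0.96). Plcg2, the phospholipase that BTK activates, did not pass (0.10 ± 0.09, adjusted p = 0.425), but did after that correction (0.515, adjusted p = 0.0193). Lyn and Syk, like Btk, are expressed by neutrophils and monocytes too, whose markers are given above.

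Of 30 genes further downstream 14 fell (46.7%) and 2 rose (6.67%), beside 19.5% and 12.8% of all genes tested. The median log2 fold change was -0.258, and that of all genes tested was 0.0228. After the GC content and length correction 10 were lower and 3 higher, beside 12.6% and 13.8% of all genes tested. Without Aalter-1, 17 were lower and 7 higher, when 3652 and 3561 of all genes were. With any other library left out, between 3 and 7 were lower, when between 177 and 811 of all genes were. The 3 genes of the calcium-activated NFAT factors in the list fell, with Nfatc2 at -2.14 ± 0.28, Nfatc1 at -1.87 ± 0.20 and Nfatc3 at -0.70 ± 0.09, as did the calcium channel gene Itpr3 (-1.44 ± 0.17). Nfatc1 went from 89.68, 152.6 and 147.1 CPM in Aalter to 35.54, 34.61 and 36.23 CPM in VE. After the GC content and length correction these 4 genes still passed, with a smaller fall for Itpr3 (-0.62).

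Of 18 inhibitors of the pathway 4 fell and 6 rose. The share that fell, 22.2%, was near the 19.5% of all genes tested, and the share that rose was 33.3% beside 12.8%, with 3 higher when library size was the only scaling. Inpp5d, the lipid phosphatase SHIP1, fell from 207 ± 45.2 to 107 ± 1.69 CPM (-0.96 ± 0.16, adjusted p = 0.00967), and its log2 fold change was -0.52 after the GC content and length correction. Fcgr2b, the inhibitory Fc receptor of B cells and also of myeloid cells, rose from 138 ± 44.9 to 268 ± 12.2 CPM (0.96 ± 0.21, adjusted p = 0.018). Ptpn6, the phosphatase SHP-1 that CD22 and CD72 recruit, rose by 0.34 ± 0.10 on the log2 scale (adjusted p = 0.0342), though not with library size as the only scaling (0.195, adjusted p = 0.19). Dok3 (0.51 ± 0.10) and Lair1 (1.06 ± 0.25) rose as well. Lyn, Fcgr2b, Ptpn6, Dok3 and Lair1 passed only once each (1 of 6) when single libraries were dropped in turn, whereas Cblb, Vav2, Nfatc1, Nfatc3 and Itpr3 passed 6 times of 6.

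**Figure D4:**
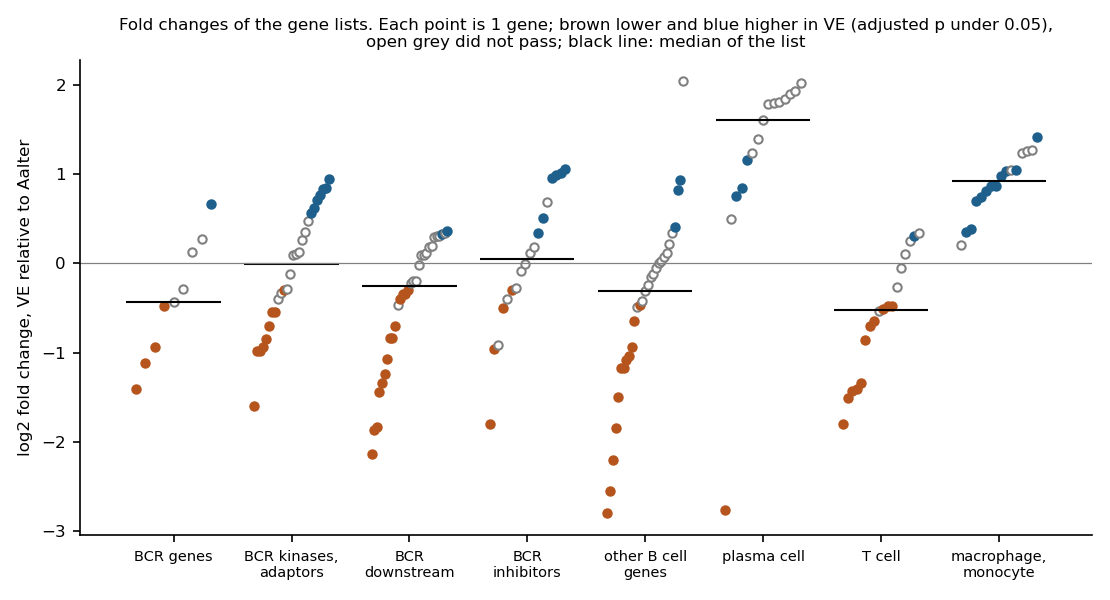
Log2 fold changes (vertical axis, VE relative to Aalter) of the genes tested in 8 lists, 1 point a gene, with the median of each list as a black line. The B cell receptor genes have a median of -0.432, other B cell genes of -0.308 and T cell markers of -0.521, whereas macrophage and monocyte markers have a median of 0.926 and plasma cell markers of 1.6.

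Other genes of B cell identity also went both ways, with 12 of 29 lower (41.4%, beside 19.5% of all genes) and 3 higher (10.3%, beside 12.8%), and with 13 and 2 after the GC content and length correction. The transcription factor genes Bach2 (-2.55 ± 0.27), Spib (-2.20 ± 0.18), Pax5 (-1.50 ± 0.15) and Ebf1 (-1.17 ± 0.18) fell, while the factor genes Pou2af1 (-0.05, adjusted p = 0.804) and Bcl11a (-0.42, adjusted p = 0.308) of the list did not pass. Also lower were the follicle-homing receptor gene Cxcr5 (-1.84 ± 0.13) and the IgE receptor gene Fcer2a (-2.80 ± 0.39). The 3 that rose were Tnfrsf13b (0.82 ± 0.21), a receptor for BAFF and APRIL, Ly86 (0.41 ± 0.11) and Cd38 (0.93 ± 0.23), which each passed in 1 of the 6 fits with a library left out and not with library size as the only scaling (adjusted p from 0.0528 to 0.112). The genes for the receptor's own heavy chains did not pass. Ighm was at 342.4, 323.8 and 315 CPM in Aalter, against 302.1, 317.8 and 411.5 CPM in VE (0.07 ± 0.13, adjusted p = 0.704), and Ighd at 60.27, 59.2 and 50.16 CPM against 47.58, 49.27 and 40.14 CPM (-0.31 ± 0.12, adjusted p = 0.0816). Ighm is also read in plasma cells that make IgM. The summed level of the 29 genes was between 1453 and 1603 CPM in Aalter and between 1297 and 1544 CPM in VE.

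The summed level of 15 plasma cell markers was higher in every VE library than in any Aalter library, between 23315 and 44818 CPM in VE and between 4662 and 18248 CPM in Aalter, where Aalter-1 was the highest. Such a separation was seen for 25.6% of all genes tested. The largest parts of the sum were Igkc (3366 and 12782 CPM on average in Aalter and VE) and Igha (1771 and 6180 CPM). Neither passed (adjusted p = 0.0658 and 0.12). Of the 15 genes 3 rose (20%, beside 12.8% of all genes tested) and 1 fell (6.67%, beside 19.5%). Tnfrsf17 (1.16 ± 0.25), Xbp1 (0.75 ± 0.21) and Txndc5 (0.84 ± 0.26) rose, and Irf4 fell (-2.76 ± 0.60). Each of these 4 calls held in 1 of the 6 fits with a library left out. With library size as the only scaling Xbp1 and Txndc5 did not pass (adjusted p = 0.0878 and 0.105), nor did Tnfrsf17 after the GC content and length correction (0.0567), whereas 14 rose without both libraries numbered 1. Jchain, the joining chain of secreted IgM and IgA, was at 2299, 519.1 and 550.4 CPM in Aalter, against 2843, 3359 and 5470 CPM in VE and did not pass (1.79 ± 0.69, adjusted p = 0.0988). The part of plasma cells in the levels of the 9 genes was not tested.

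T cells are lymphocytes that lack this receptor. Of 18 of their markers 11 fell (61.1%) and 1 rose (5.56%), beside 19.5% and 12.8% of all genes tested. Cd3e (-0.86 ± 0.13), Trac (-1.51 ± 0.32) and Cd247 (-0.51 ± 0.11) were among those that fell. Other genes of the T cell receptor went differently without the GC content and length correction. Cd3g rose (0.31 ± 0.09, adjusted p = 0.041), and Cd3d (0.11), Trbc1 (-0.055) and Trbc2 (-0.26) did not pass. After that correction Trbc1 (-0.66, edgeR adjusted p = 0.0276) and Trbc2 (-0.88, adjusted p = 0.0248) were lower too. Cd3g (-0.07) and Cd3d (0.01) then did not pass. Trac and Cd247 each passed in 1 of the 6 fits with a library left out. Of 7 tested markers of plasmacytoid dendritic cells, which express Blnk too, 2 fell (Ccr9 at -2.003 ± 0.30 and Pacsin1 at -1.195 ± 0.19) and 1 rose (Bst2 at 0.91 ± 0.17). These shares, 28.6% and 14.3%, stand beside 19.5% and 12.8% of all genes tested. The defining marker Siglech was at 2.58 and 4.04 CPM on average and did not pass (adjusted p = 0.123). Among 12 genes of lung epithelium and endothelium 3 fell (Foxj1, Scgb1a1 and Pecam1) and 1 rose (Ager). The shares, 25% and 8.33%, were near the 19.5% and 12.8% of all genes tested. Pecam1 did not pass after the GC content and length correction (adjusted p = 0.0897), nor Ager with library size as the only scaling (0.0888). Pecam1 and Ager each passed in 1 of the 6 fits with a library left out.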

How the data were processed

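Libraries were made from total RNA of 6 samples labelled lung tissue with a SMARTER kit for mRNA, per the labels' protocols. The authors' deposited file gives estimated counts for each gene, per the file headers, and between 10.5% and 12.2% of a library's values were not whole. The build is mm10, per the submitters' processing notes, while the aligner, the counting tool and its use of strand were not given in the sources used here. Each column was assigned to the sample whose title has its letters and number.

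Counts were rounded and tested in R 4.3.3 with edgeR 4.0.16, using TMM factors, the filterByExpr filter, robust quasi-likelihood fits over 12551 genes and the group as the only term. Fold changes are VE relative to Aalter, and an SE is the size of the log2 fold change over the root of F. Coordinates, lengths and GC content are from GENCODE vM21. Alternatives were other scalings, DESeq2 1.42.0, limma-voom (limma 3.58.1), other filters, a replicate block, a GC content and length correction (removal of each library's spline trends, 5 degrees of freedom, on both properties of the longest transcript), no immunoglobulin genes, and libraries left out. The steps were also run on simulated counts with known changes. No simulated library stood apart as Aalter-1 does, so that run cannot show how the calls depend on single libraries. Every pair of libraries differed by more than sampling noise (lowest median chi-square 0.715, against 0.455 from noise alone).

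The members and lists were chosen with earlier results of these data known. Named genes are the 9 members, up to 4 genes of each other list with the smallest p that passed, and a set of defining genes. The lists cover the wider receptor pathway and markers of B, plasma, T, follicular and plasmacytoid dendritic, macrophage and monocyte, neutrophil, mast and basophil, and lung epithelial and endothelial cells. Cxcl13, Cr1l, Igkc, Igha and further list genes given as exceptions or as those that rose (Pou2af1, Bcl11a, Tnfrsf13b, Ly86, Cd38, Cd3d, Cd3g, Trbc1, Trbc2, Ms4a2, Gata2) were named after their values were seen. Fdcsp is not analysed here. Some of the genes this rule names are not reported here. Figures were drawn with matplotlib 3.10.9 in Python 3.11.15.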

Additional observations from a re-analysis of the deposited data

How the results depend on the processing

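The count of 4 lower among the 9 genes lay between 4 and 5 under all alternatives that kept the 6 libraries and without both libraries numbered 1, and between 1 and 5 when 1 library was left out. The count of 1 higher was 0 scaled by library size alone, 0 after the GC content and length correction, 0 after it in the fit with the replicate block, 2 without both libraries numbered 1, and between 0 and 2 when 1 library was left out. Each of these counts of 0, from edgeR, had 1 gene at an unadjusted p under 0.05, and DESeq2 and limma-voom on all libraries called 1. In the wider pathway, 27 lower genes became 16 with the replicate block and that correction, and between 5 and 35 when 1 library was left out, and 15 higher became 6 scaled by library size alone, 27 without both libraries numbered 1, and between 0 and 26 when 1 library was left out (13 higher with the block). Cd72 turned from 0.12 to -0.017 scaled by library size alone and to -0.11 without VE-3, and lay between -0.11 and 0.259 when 1 library was left out. The causes were not tested.

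The numbers 1 to 3 are shared by the groups but the labels do not say that they pair libraries. Deviations from the group means had correlations of 0.299, 0.272 and 0.0532 for equal numbers, and Aalter-3 correlated best with VE-2 (0.171). With the replicate block and the correction Cd79a did not pass (-0.34, adjusted p = 0.0642 from edgeR) and Ms4a1 did. With the replicate block alone 4 of the 9 genes were lower and 1 higher, as without it, and 22 of the wider pathway were lower. Over all genes, 2442 were lower and 1612 higher, against 3231 and 495 scaled by library size alone, 3559 and 3404 without both libraries numbered 1, 1583 and 1733 after the correction, 1262 and 1298 after it with the block, and 3652 and 3561 without Aalter-1. Leaving out 1 of the other libraries gave between 177 and 811 lower and between 2 and 110 higher. With 33 to 139 counts per library, Cr2 is the least precisely measured of the 9 genes.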
